A study of Homo sapiens with 3 samples.

Results

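The kinesin genes were the 47 members selected by name from 60930 entries of the expression table: every gene symbol of KIF with a number and an optional letter, KIFC1, KIFC2, KIFC3, the kinesin-2 adaptor KIFAP3 and the light chains KLC1, KLC2 and KLC4. The 12 mitotic members were KIF2C, KIF4A, KIF11, KIF14, KIF15, KIF18A, KIF18B, KIF20A, KIF20B, KIF22, KIF23 and KIFC1, and they were compared with the other 35. The rule uses gene names only. The other members are not all cargo carriers, since they also hold KIF2A, a microtubule depolymerase, KIF7 and KIF24, which act at cilia, and KIF28P, a pseudogene that the name pattern caught. They are therefore called the other kinesins. After removal of repeated names, 13637 genes averaged 1 TPM or more (a library's reads per gene corrected for transcript length and scaled to a fixed sum) over the 3 libraries and were tested, among them 34 members: all 12 mitotic kinesins and 22 of the others.

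RNA-seq was performed on PC3 cells, a prostate cancer line that grows without androgen, in which USP16, a deubiquitinase, was knocked down to ask how gene expression changes without it. There was 1 library of cells carrying the vector control (shCON) and 1 for each of 2 hairpins against USP16 (shUSP16#1 and shUSP16#2). The paper describes hairpins in the pLKO.1 vector and stable PC3 lines selected with puromycin, but its RNA-seq methods do not state that these lines were sequenced. If they were, the control cells also carry vector and went through selection. No difference has a replicate check and no p-value can be given.

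Kinesins are motor proteins that bind microtubules and burn ATP. Some walk along them with organelles, vesicles or RNA as cargo, while others build the mitotic spindle, hold chromosomes on it or organise the midzone where the cell divides. Many mitotic kinesin genes are transcribed mainly in late G2 and mitosis, through promoters that hold a cell cycle genes homology region (CHR) and CCAAT boxes, and dividing cancer cells usually express them at high levels.

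Promoter stretches are shown for 4 mitotic kinesins, 3 of which were at least 2-fold lower in at least 1 knockdown library and 1 of which (KIF22) was not, and for KIF5B, an other kinesin that was at least 2-fold lower in both. Capitals mark the CHR hexamer, searched as TTTGAA or TTCGAA on both strands, and the CCAAT box, also on both strands. They are written 5′ to 3′ on the strand of the gene, from RefSeq on GRCh38.p14, at chr15:69414279-69414308 (forward strand, KIF23), chr10:92593030-92593129 (forward, KIF11), chrX:70290004-70290103 (forward, KIF4A), chr16:29790651-29790732 (forward, KIF22) and chr10:32056466-32056585 (reverse, KIF5B).
KIF23: gcgctgATTGGcccgTTTGAAatgcgccag
KIF11: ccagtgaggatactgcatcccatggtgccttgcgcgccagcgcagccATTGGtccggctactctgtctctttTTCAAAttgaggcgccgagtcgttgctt
KIF4A: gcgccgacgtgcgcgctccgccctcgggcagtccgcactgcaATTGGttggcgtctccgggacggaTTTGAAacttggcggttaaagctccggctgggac
KIF22: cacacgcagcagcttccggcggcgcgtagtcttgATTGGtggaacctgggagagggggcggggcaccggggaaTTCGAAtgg
KIF5B: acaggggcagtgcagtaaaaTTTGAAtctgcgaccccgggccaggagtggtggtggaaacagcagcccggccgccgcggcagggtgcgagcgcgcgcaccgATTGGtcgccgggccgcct

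In GENCODE release 29 (GRCh38), the KIF11 and KIF5B stretches lie upstream of the gene. Of the KIF4A and KIF22 stretches, 14 bases each lie in an exon, and the 30 bases of KIF23 lie in an exon of a transcript that starts further upstream than the RefSeq start. The CHR hexamer of KIF23 begins 55 bases before the RefSeq start, 9 bases after the start of its CCAAT box. In KIF11 and KIF4A these spacings were 25 and 24 bases. KIF5B has the motifs in the opposite order, with the hexamer 81 bases before the CCAAT box.

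Among the 36 members with a RefSeq promoter window (250 bases before to 50 after the start), the CHR hexamer was found in 10 of the 12 mitotic genes (83.3%) and in 3 of 24 other kinesin genes (12.5%), which were KIF4B, KIF5B and KIF24. Of all 27305 genes with a window, 19.5% held it. CCAAT boxes were found in 10 of 12 mitotic genes, in 8 of 24 other kinesin genes and in 39.7% of all genes. Both stood together in 9 mitotic and 3 other genes, against 7.85% of all genes. KIF2C and KIF20A had no CHR hexamer in the window, and KIF2C and KIF15 had no CCAAT box. The E-box CACGTG, a palindrome known as a binding motif of MYC, was in none of the 36 members and in 8.77% of all genes. No match overlapped another motif. These are matches of letters within the windows and no measurement of binding.

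**Figure D1:**
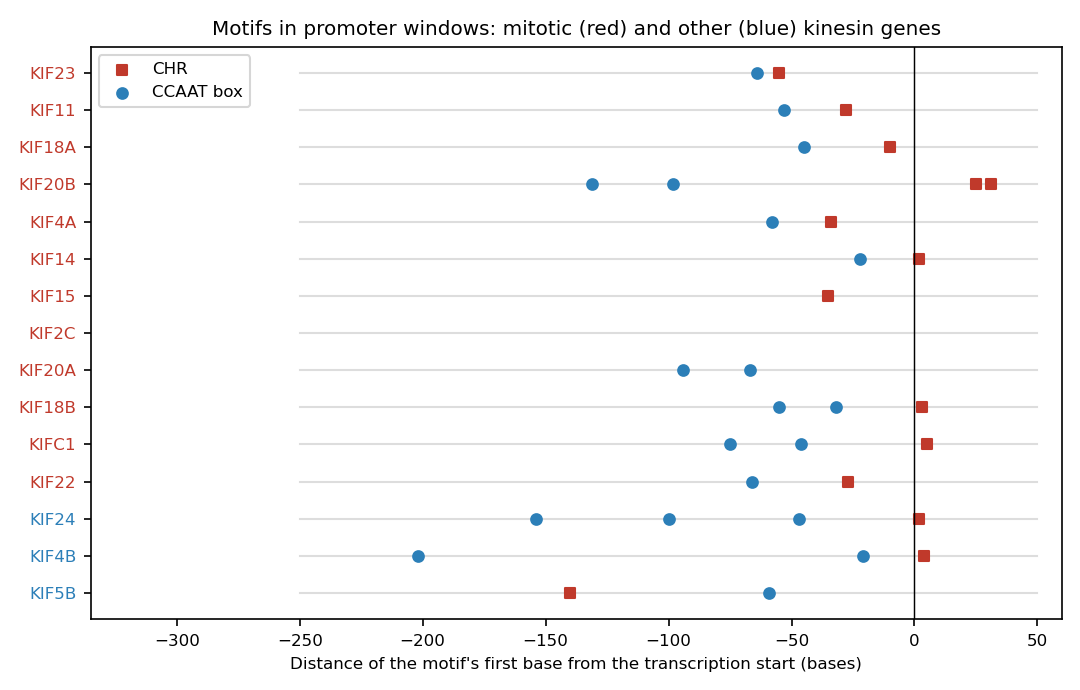
Position of CHR hexamers (red squares) and CCAAT boxes (blue circles) in promoter windows of the 12 mitotic kinesins (red names) and of the 3 other kinesins with a CHR hexamer (blue names), 1 window per gene. The x axis is the distance in bases from the transcription start, and 9 mitotic genes hold both motifs, with the hexamer 9 to 122 bases downstream of the nearest CCAAT box.

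The targeted gene, USP16, was at 19.9 TPM in shCON, 3.50 TPM with shUSP16#1 and 1.08 TPM with shUSP16#2. MKI67, a marker of cycling cells, was at 29.6, 12.1 and 8.78 TPM in the same order. The epithelial markers KRT8, KRT18, KRT19, EPCAM and CDH1 were at 46.4 TPM or more in every library, while KLK3, which PC3 cells lack, was listed at 0 in all 3. TMPRSS2, also counted as lacking in PC3 cells, was detected at 1.13, 3.68 and 1.63 TPM. Of 8 markers of immune cells, fibroblasts and endothelium, 6 stayed at 0.22 TPM or less, PECAM1 reached 1.28 TPM, and COL1A1 was at 4.19, 10.7 and 4.78 TPM. Changes are differences of log2(TPM + 1), hairpin library minus shCON, on which low genes appear to change less than they did, and a gene was called where this change was at least 1 in size (2-fold). Over all tested genes the median change was -0.17 under shUSP16#1 and -0.37 under shUSP16#2. Both comparisons share the shCON library, so they are not independent of each other.

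The mitotic kinesins were lower in both knockdown libraries than in shCON, with KIF22 as the exception. Their median log2 change was -0.79 under shUSP16#1 and -1.38 under shUSP16#2, and 11 of 12 lay below the median of all tested genes in each comparison. At least 2-fold lower were 3 of 12 under shUSP16#1 (KIF23, KIF11 and KIF18A), where 5.79% of all tested genes were, and 8 of 12 under shUSP16#2, where 19.5% were. The other kinesins had medians of -0.07 and -0.48, with 1 of 22 and 5 of 22 at least 2-fold lower. None of the 34 was at least 2-fold higher, against 2.83% and 2.8% of all tested genes, although KIFC2 passed 2-fold under shUSP16#1 with a pseudocount of 0.1 (1.05) and with centring on the all-gene median (1.17). The medians of the mitotic and other kinesins differed by -0.72 under shUSP16#1 and by -0.90 under shUSP16#2. In RNA from whole cultures, fewer cells in mitosis and less kinesin RNA per cell cannot be told apart, and MKI67 moved with the mitotic kinesins, by -1.23 and -1.65 on the log2 scale; its part in the result was not tested.

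**Figure D2:**
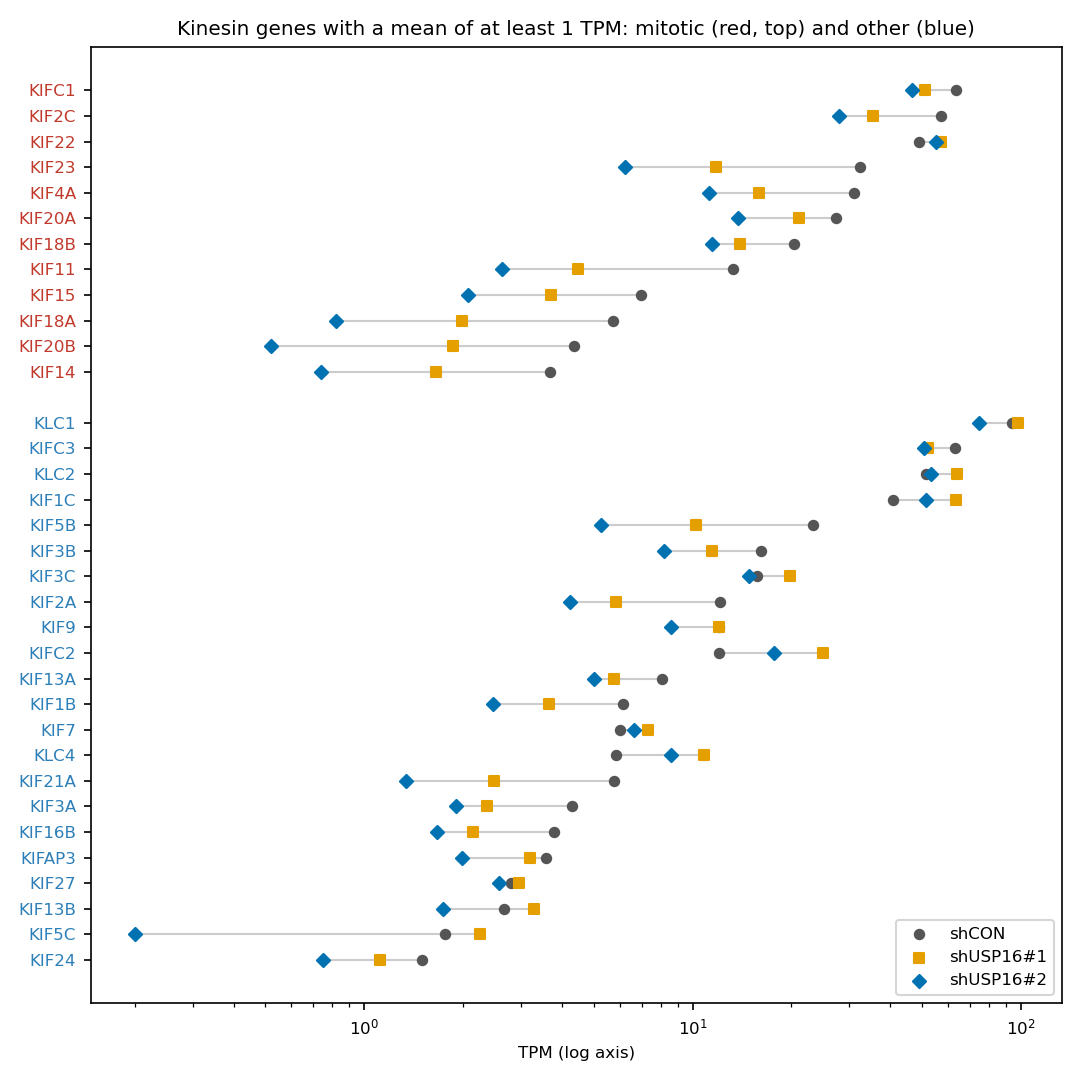
TPM (log axis) of the 34 tested kinesin genes in shCON (grey circles), shUSP16#1 (orange squares) and shUSP16#2 (blue diamonds), 1 library each, with mitotic kinesins on top. For 11 of the 12 mitotic kinesins the shCON point lies to the right of both knockdown points, and KIF22 has it on the left.

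Among motors that set up the bipolar spindle, KIF11, the kinesin-5 that slides the poles apart, was at 13.3 TPM in shCON, 4.48 TPM with shUSP16#1 and 2.63 TPM with shUSP16#2. The knockdown libraries thus held 33.8% and 19.8% of its shCON level, log2 changes of -1.38 and -1.97. KIF15, the kinesin-12 that can assist KIF11, was at 6.97, 3.70 and 2.07 TPM (-0.76 and -1.38). KIFC1, a minus-end motor of the kinesin-14 family that gathers spindle poles and clusters extra centrosomes, was at 63.4, 51.1 and 46.6 TPM. Its changes of -0.30 and -0.44 were short of 2-fold. A trend with GC content is described below. After its removal KIFC1 was at -0.57 and -0.82, KIF15 at -0.38 and -0.81, and KIF11 at -0.94 and -1.28. The ratio of KIFC1 to KIF11 TPM was 4.78 in shCON, 11.4 with shUSP16#1 and 17.7 with shUSP16#2.

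Of the midzone and cytokinesis motors, KIF23, the motor subunit of centralspindlin, fell under both hairpins. It was at 32.4 TPM in shCON, 11.8 TPM with shUSP16#1 and 6.23 TPM with shUSP16#2, which are 36.4% and 19.2% of the control. Its log2(TPM + 1) changes were -1.38 and -2.21, and 0.62% of tested genes had a lower change under shUSP16#2. With a pseudocount of 0.1, KIF11 was lower than KIF23 under shUSP16#1 (-1.54 against -1.45), and KIF20B was lower under shUSP16#2 (-2.85 against -2.36), so the order among the members depends on the scale. RACGAP1, the other subunit of centralspindlin, was at 101.1, 51.7 and 47.9 TPM, so the ratio of KIF23 to RACGAP1 was 0.321, 0.229 and 0.130. KIF20B, which acts late in cytokinesis, was at 4.36, 1.86 and 0.52 TPM, with changes of -0.91 and -1.82. Its paralog KIF20A, which brings the chromosomal passenger complex to the midzone, was at 27.3, 21.1 and 13.8 TPM, and its changes of -0.36 and -0.94 did not reach 2-fold. KIF14, a midbody motor that binds PRC1 and citron kinase, was at 3.67, 1.65 and 0.74 TPM (-0.82 and -1.42). KIF4A, which travels with PRC1 and limits midzone length, was at 31.0, 15.9 and 11.3 TPM (-0.92 and -1.39), and its ratio to PRC1 was 0.415, 0.340 and 0.346. KIF4B is a near-identical, nearly intronless copy of KIF4A, so how reads were split between them is uncertain; KIF4B was at 0.32, 0.15 and 0.09 TPM, under the minimum.

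Of the motors that position chromosomes, KIF18A, a kinesin-8 that dampens chromosome movements at the metaphase plate, fell under both hairpins, from 5.74 TPM in shCON to 1.99 and 0.82 TPM (-1.17 and -1.89). Its paralog KIF18B, which trims astral microtubules, was at 20.3, 13.9 and 11.5 TPM, changes of -0.52 and -0.77. KIF2C, the kinetochore depolymerase MCAK, was at 57.1, 35.5 and 27.9 TPM. It was just past 2-fold under shUSP16#2 (-1.01) and short of it under shUSP16#1 (-0.67). KIF22, a chromokinesin that pushes chromosome arms away from the poles, was the one mitotic member above shCON in both libraries, at 49.1 TPM in shCON, 57.1 TPM with shUSP16#1 and 55.3 TPM with shUSP16#2 (0.21 and 0.17). Its promoter holds a CHR hexamer and a CCAAT box, shown above, as do those of KIF23 and KIF11. The 12 mitotic kinesins together made up 44.4% of the TPM of all members in shCON, 34.9% with shUSP16#1 and 35.4% with shUSP16#2.

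Kinesin-1, the main carrier of organelles and vesicles, changed unevenly between its subunits. KIF5B, the heavy chain that most tissues express, was at 23.3 TPM in shCON, 10.2 TPM with shUSP16#1 and 5.27 TPM with shUSP16#2. Its changes were -1.11 and -1.95, and 1.14% of tested genes had a lower change under shUSP16#2. The light chains, which bind cargo, did not follow: KLC1 was at 94.1, 98.0 and 74.8 TPM, KLC2 at 51.5, 64.0 and 53.4 TPM, and KLC4 at 5.85, 10.9 and 8.61 TPM. No light chain reached 2-fold, and the range of their changes was -0.33 to 0.79. KIF5C, a heavy chain best known from neurons, was low, at 1.76 TPM in shCON, 2.25 TPM with shUSP16#1 and 0.20 TPM with shUSP16#2 (0.24 and -1.20). With a pseudocount of 0.1 its change under shUSP16#2 was -2.63, against -2.12 for KIF5B. Summed TPM of heavy over light chains was 0.166 in shCON, 0.0723 with shUSP16#1 and 0.0406 with shUSP16#2. KIF5B (39.1% GC) is poorer in GC than KLC1 (53.6%), KLC4 (59.4%) and KLC2 (63.8%). After removal of the GC trend KIF5B was at -0.68 and -1.26 and KIF5C at 0.45 and -0.92. KLC1 was then at -0.11 and -0.57, KLC2 at -0.11 and -0.55, and KLC4 at 0.51 and 0.02. The ratio was not corrected for this trend, and the part of the trend in it was not tested.

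Kinesin-2, which drives intraflagellar and late endosome transport, held no tested member at 2-fold, although KIF3A passed it under shUSP16#2 with a pseudocount of 0.1 (-1.13). KIF3A was at 4.28, 2.37 and 1.90 TPM and its partner KIF3B at 16.1, 11.5 and 8.16 TPM, with log2 changes from -0.46 to -0.90. KIF3C, which can take the place of KIF3B beside KIF3A, was at 15.7, 19.9 and 14.9 TPM (0.32 and -0.07). The ratio of KIF3C to KIF3A was 3.66, 8.38 and 7.85. KIF3A (40.3% GC) is poorer in GC than KIF3C (56.0%). After removal of the GC trend KIF3A was at -0.26 and -0.26, KIF3B at -0.36 and -0.75, and KIF3C at 0.12 and -0.36. KIF3C was then above KIF3A under shUSP16#1 alone. The adaptor KIFAP3 was at 3.57, 3.20 and 1.99 TPM. Kinesin-3 was also uneven. KIF1B, a mitochondrial and vesicle motor, was at 6.12, 3.66 and 2.46 TPM and fell under shUSP16#2 (-1.04). KIF1C, a motor of dense-core vesicles, was at 40.8, 63.5 and 51.6 TPM (0.62 and 0.33). After removal of the GC trend KIF1B was at -0.49 and -0.88 and KIF1C at 0.51 and 0.15. The endosomal motors KIF16B (3.78, 2.15 and 1.66 TPM) and KIF13A (8.05, 5.76 and 5.02 TPM) were below shCON in both libraries without reaching 2-fold, except KIF16B under shUSP16#2 with a pseudocount of 0.1 (-1.14). KIF13B was at 2.66, 3.30 and 1.74 TPM.

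Of the remaining tested kinesins, KIF21A, which slows microtubule growth at the cell cortex, was at 5.76, 2.49 and 1.34 TPM (-0.95 and -1.53), and the depolymerase KIF2A, which also works at spindle poles, was at 12.1, 5.85 and 4.23 TPM (-0.94 and -1.32). Both fell under shUSP16#2 and lay close to 2-fold under shUSP16#1. KIF27 (2.79, 2.96 and 2.58 TPM) and KIF7 (6.01, 7.33 and 6.65 TPM), relatives of which KIF7 regulates Hedgehog signalling in cilia, stayed within 2-fold. So did KIF24, with 1.12 and 0.75 TPM in the knockdown libraries and changes of -0.24 and -0.51, and KIF9, a motor of motile cilia, with 12.1 TPM in shCON, 8.61 TPM under shUSP16#2 and changes of -0.01 and -0.44. The minus-end motor KIFC3 was at 63.0, 52.1 and 50.9 TPM, changes of -0.27 and -0.30. KIFC2, another kinesin-14 gene, had the highest change of the 34 tested members under each hairpin, at 12.1, 25.0 and 17.7 TPM, and with 0.99 under shUSP16#1 it lay just short of the threshold. A transcript antisense to KIF9 shares its locus, and without strand information the reads of each cannot be told apart.

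The other 13 members were under the minimum: KIF4B, KIF5A, KIF12, KIF17, KIF21B, KIF25, KIF26A, KIF26B, KIF28P, and KIF1A, KIF2B, KIF6 and KIF19, of which the last 4 were listed at 0 in all 3 libraries. No value among them exceeded 1.21 TPM.

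Transcript GC content moved with the changes. Across the 34 tested members, GC content correlated with the log2 change at Pearson r = 0.74 under shUSP16#1 and r = 0.81 under shUSP16#2 (Spearman 0.74 and 0.81), and across all 13296 tested genes with a GC value at r = 0.41 and 0.47. These are descriptions across genes of the same libraries, and genes are not independent replicates. The mitotic kinesins had a median GC content of 44.0%, the other kinesins 48.8% and all tested genes 49.9%. KIF11 (38.3%), KIF18A (37.0%), KIF23 (41.6%) and KIF5B (39.1%) are poor in GC, whereas KIF22 (58.2%), KIFC1 (58.0%), KIFC3 (64.0%) and KIFC2 (67.6%) are rich in it. The members of both groups thus followed GC content in their order of change, with KIF27 and KIFAP3 among those that did not. The part of GC content in the result was not tested further than by the values that follow.

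With the members split at their median GC content of 47.9%, the 7 mitotic kinesins of lower GC had medians of -0.92 and -1.82 and the 10 other kinesins of lower GC had -0.61 and -0.97. All 7 of these mitotic kinesins and 5 of these 10 others were at least 2-fold lower under shUSP16#2, beside 38.3% of all tested genes at or below this GC content. On the side of higher GC, the 5 mitotic kinesins had medians of -0.36 and -0.77 and the 12 others had 0.24 and -0.19, with 1 (KIF2C) and 0 at least 2-fold lower under shUSP16#2, beside 5.46% of all tested genes above it. The mitotic median was below the other median on both sides of the split and under both hairpins. GC content was not matched within a side. On the lower side its median was 38.3% for the mitotic and 41.6% for the other kinesins, and on the higher side 57.9% and 55.4%.

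After the trend with GC content was removed (the median change of 50 GC bins subtracted and the median of all genes added back), the medians were -0.60 and -1.02 for the mitotic kinesins and -0.18 and -0.56 for the others. Their difference was then -0.43 under shUSP16#1 and -0.46 under shUSP16#2, smaller than before by more than 1.5 times. At least 2-fold lower were then 1 mitotic kinesin (KIF23) and 0 others under shUSP16#1, where 3.09% of all genes were, and 6 mitotic kinesins (KIF23, KIF11, KIF18A, KIF20B, KIF4A and KIF18B) and 2 others (KIF5B and KIF21A) under shUSP16#2, where 9.44% were. KIF23 was at -1.03 and -1.67 on this scale and KIF11 at -0.94 and -1.28. KIF18B, rich in GC at 58.4%, went the other way, from -0.77 to -1.16 under shUSP16#2. It was then close to its paralog KIF18A, with -0.78 and -1.16 for KIF18B and -0.72 and -1.19 for KIF18A. KIF20B was at -0.48 and -1.10 and its paralog KIF20A at -0.29 and -0.89, nearer to each other than before. KIF22 was at -0.05 and -0.22, still above the median of all genes.

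**Figure D3:**
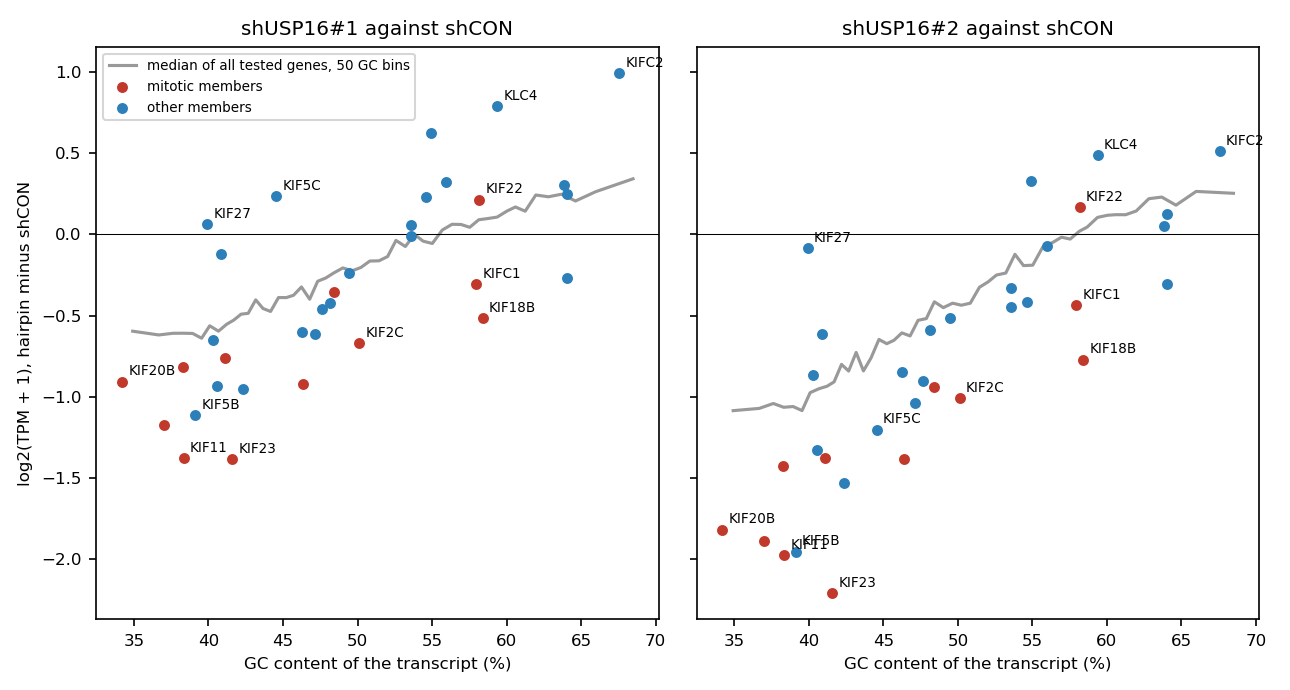
Log2(TPM + 1) change under each hairpin (y axis) against transcript GC content in percent (x axis) for the 12 mitotic (red) and 22 other (blue) tested kinesins. The grey line is the median of all tested genes in 50 GC bins; 11 of 12 mitotic kinesins lie below this trend in each panel, KIF22 lies above it, and the other kinesins lie on both sides.

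Between the knockdown libraries, a comparison that does not use shCON, all 34 tested members were lower under shUSP16#2 than under shUSP16#1, as were 10016 of the 13637 tested genes. The median difference was -0.59 for the mitotic kinesins, -0.39 for the others and -0.21 for all tested genes. After removal of the GC trend the median was -0.40 for the mitotic kinesins and also -0.40 for the others. Only KIF5C was at least 2-fold lower (3.58% of all tested genes were) and no member was at least 2-fold higher (1.61% were). KIF20B (-0.91), KIF5B (-0.84) and KIF23 (-0.83) followed KIF5C (-1.44), and KIFC3 (-0.03) and KIF22 (-0.05) were nearest to 0. USP16 itself was lower under shUSP16#2 than under shUSP16#1, as given above.

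Genes that work with kinesins were set beside them in 4 lists. Of the 22 mitotic partners of the spindle and midzone, all were below shCON in both libraries, with medians of -0.83 and -1.17, and 5 and 15 were at least 2-fold lower, where 5.79% and 19.5% of all tested genes were. The lowest by the mean change of both hairpins were CENPF, a kinetochore protein (27.2, 7.34 and 5.36 TPM, changes of -1.76 and -2.15), ECT2, the exchange factor that centralspindlin recruits (36.2, 16.2 and 7.10 TPM, -1.11 and -2.20), and ANLN, the scaffold of the contractile ring (53.8, 21.5 and 12.5 TPM, -1.28 and -2.02). After removal of the GC trend the medians of this list were -0.62 and -0.87, and 2 and 7 were past 2-fold, where 3.09% and 9.44% of all genes were; 2 and 5 of these had also been past it before.

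Adaptors and cargo partners of transport kinesins, 23 of 27 tested, had medians of -0.16 and -0.77, with 0 and 7 of 23 at least 2-fold lower, beside the same shares of 5.79% and 19.5% of all tested genes. SPAG9, a scaffold that binds kinesin-1 (23.0, 12.3 and 8.68 TPM) and the intraflagellar transport subunit IFT80 (8.47, 4.94 and 2.32 TPM) were among the lowest by mean change, and each fell under shUSP16#2. BORCS5, a subunit of the BORC complex of lysosomes, was at 1.07, 2.97 and 3.57 TPM and rose under shUSP16#2 (1.14), and MAPK8IP3, another kinesin-1 scaffold, was at 10.7, 17.9 and 16.5 TPM (0.69 and 0.59). None of the 23 was past 2-fold in the lower direction after removal of the GC trend.

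Cytoplasmic dynein and dynactin, the motor of the opposite direction and its activator, had 26 of 28 genes tested, medians of -0.37 and -0.61, and 1 and 10 of 26 genes at least 2-fold lower, again beside 5.79% and 19.5% of all tested genes. After removal of the GC trend the medians of this list were -0.22 and -0.55. At least 2-fold lower were then 1 and 4 genes, where 3.09% and 9.44% of all genes were. The heavy chain DYNC1H1 fell under both hairpins, from 142.2 TPM to 60.1 and 53.3 TPM (-1.23 and -1.40), and at a GC content of 52.2% it was at -1.26 and -1.47 after removal of the GC trend. DCTN4 (18.2, 9.83 and 6.91 TPM) and CAPZA1 (53.0, 27.2 and 24.1 TPM), both of dynactin, followed. The light chain DYNLT1 (124.1, 174.7 and 174.1 TPM) and the dynactin subunit DCTN3 (97.1, 121.2 and 121.2 TPM) were highest, without reaching 2-fold.

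The 16 tubulins, which form the track, had medians of -0.23 in both comparisons. None was at least 2-fold lower and 2 were at least 2-fold higher in each, beside 2.83% and 2.8% of all tested genes. They are rich in GC, at a median of 56.1%. After removal of the GC trend their medians were -0.46 and -0.45, against -0.17 and -0.37 for all tested genes. In each comparison 11 of 16 were then below the all-gene median, and none was at least 2-fold lower. TUBA1B was at 2854, 1904 and 1780 TPM, TUBA1C at 1677, 1134 and 1199 TPM and TUBB at 1049, 771.8 and 694.5 TPM, all within 2-fold. TUBB2B rose under both hairpins, from 16.6 TPM to 40.4 and 40.1 TPM, and TUBA1A under shUSP16#1 alone passed 2-fold, at 17.7, 50.6 and 18.8 TPM, as TUBB4A did under shUSP16#2 alone, at 0.50, 0.92 and 2.23 TPM. Many of the alpha and beta tubulin genes are near-identical copies, so the split of reads between them is uncertain.

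**Figure D4:**
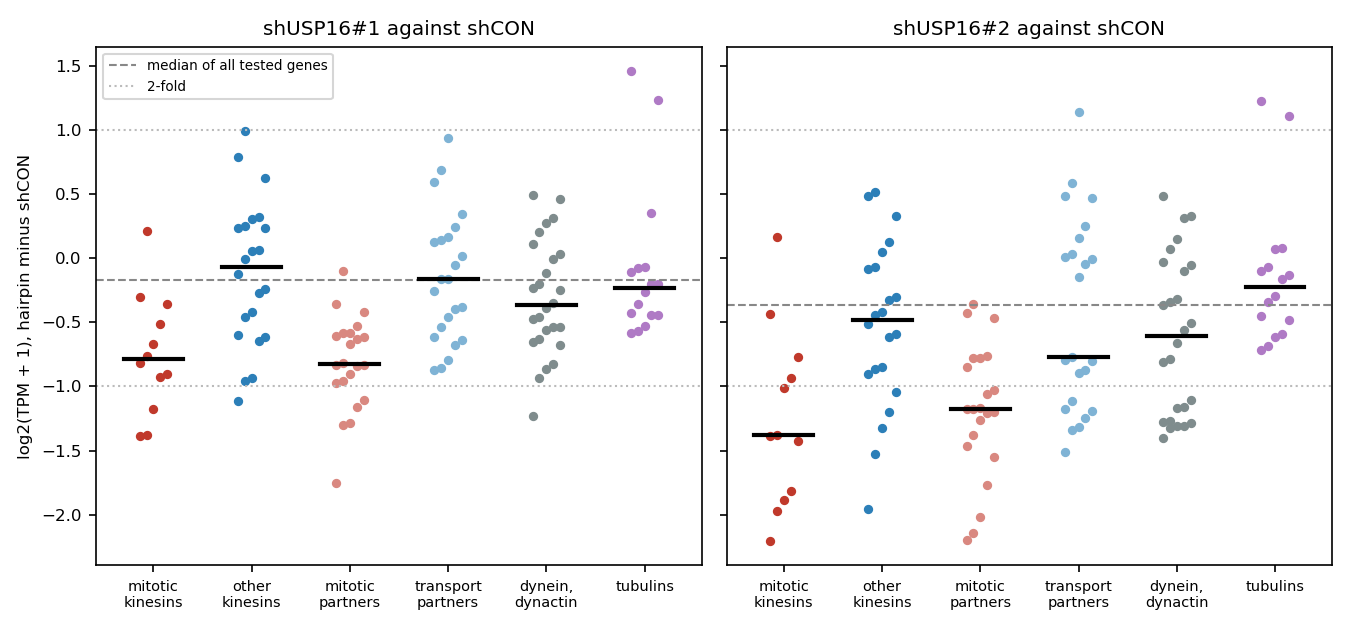
Log2(TPM + 1) change of every tested gene (points) in the mitotic kinesins, the other kinesins and the 4 lists of partners, under shUSP16#1 (left) and shUSP16#2 (right); black bars are list medians, dotted lines mark 2-fold, and the dashed line is the all-gene median. The mitotic kinesins and mitotic partners have the lowest medians in both panels, at -0.79 and -0.83 on the left and -1.38 and -1.17 on the right.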

How the data were processed

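Total RNA of PC3 cells was sequenced from Illumina TruSeq libraries, 1 per condition. The authors deposited TPM values with 2 decimals for 60930 entries. Their processing notes list CASAVA, HISAT2 and hg19; the quantification tool and annotation are not given in the sources used here, nor is strandedness. TPM keep no depth, so depth is unknown and no interval was computed. Entry identifiers were matched to GENCODE release 29 (57263 of the 59719 names left after 1211 repeated names were removed), which is on GRCh38, and all coordinates are from it or from RefSeq GRCh38.p14, not from hg19. The 3 columns that repeat a library were not used, nor were the GO and KEGG columns.

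Changes were computed as differences of log2(TPM + 1) between libraries, with no test across samples. GC content came from the GENCODE 29 transcript nearest in length to the deposited length, which was within 1 base for 23 of the 47 members (for KIF27 the lengths differed widely). The GC trend was removed with medians of 50 bins. Named were all tested members, and in each partner list the genes with the 3 largest falls and the 2 largest rises by mean change of both hairpins; RACGAP1, PRC1 and TUBB4A were named in addition. Some of the marker and partner genes examined are not reported here. Members and lists were chosen with earlier results of these data known. The procedures were tested on simulated data. Alternatives were a pseudocount of 0.1, minimum means of 0 and 5 TPM, centring, GC removal and the transport families alone. Python 3.11.15, numpy 2.4.6, pandas 2.3.3 and matplotlib 3.10.9 were used.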

Additional observations from a re-analysis of the deposited data

Results flagged for a closer look

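For 5 of the 34 tested kinesins the change against shCON had opposite signs under the hairpins, and the difference between them was not tested. The log2(TPM + 1) change under shUSP16#2 minus that under shUSP16#1 was -1.44 for KIF5C, -0.65 for KIF13B, -0.39 for KLC1, -0.39 for KIF3C and -0.15 for KIF27. KIF5C, a kinesin-1 heavy chain, is the one in which a change passed 2-fold, and it was at 0.20 TPM under shUSP16#2.

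Among members under the minimum mean of 1 TPM, 2 exceeded 1 TPM in a library, in each case under shUSP16#2 and above shCON. KIF17, a kinesin-2 motor of cilia and dendrites, was at 0.25 TPM in shCON, 0.17 TPM with shUSP16#1 and 1.21 TPM with shUSP16#2. KIF21B, the paralog of KIF21A, was at 0.42, 0.91 and 1.20 TPM.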

How the results depend on the processing

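No paired analysis was possible because there was a single library of each condition. Of the values for the groups, 45 kept their sign and stayed within 1.5 times under an alternative. The other 41 moved by more than 1.5 times, changed sign or, as counts, fell to 0. For the values of single kinesins these numbers were 283 and 235, in that order. No called value changed sign. Against shCON, the median of the mitotic kinesins stayed negative under every alternative run and below that of the other kinesins. The cause of each move was not tested beyond what an alternative itself changes. With a pseudocount of 0.1, 5 mitotic and 3 other kinesins were at least 2-fold lower under shUSP16#1. With no minimum the other kinesins had medians of -0.00885 and -0.0822, and with a minimum of 5 TPM 0.0583 and -0.30, with 4 mitotic and 2 other kinesins called under shUSP16#2. With centring on the all-gene median, the others had medians of 0.11 and -0.11 and 0 and 2 calls. With the transport families alone their median under shUSP16#1 was -0.0318, with 3 calls under shUSP16#2. Removal of the GC trend gave the others -0.18 under shUSP16#1, differences of medians of -0.43 and -0.46, 1 mitotic call under shUSP16#1 and 0 and 2 other calls.

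Further alternatives were chosen after seeing the data. With GC and length trends removed, the others' median under shUSP16#1 was -0.13, the differences were -0.48 and -0.51, mitotic calls under shUSP16#1 were 0, and other calls were 0 and 1. With GC removed within levels of expression, these were -0.15, -0.46 (shUSP16#2), 0, and 0 and 3. With GC removed and centring, the mitotic medians were -0.43 and -0.65, the others' -0.00392 and -0.19, the differences -0.43 and -0.46, mitotic calls 0 and 1, and other calls 0 and 0. Depth is unknown, so values near 1 TPM, such as those of KIF5C, carry an unknown counting error.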

Other observations

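Ratios of related kinesins within a library also moved. KIF5B over KIF5C was 13.2 in shCON, 4.54 with shUSP16#1 and 26.4 with shUSP16#2, so the knockdown libraries lay on opposite sides of shCON. KIF21A over KIF21B was 13.7 in shCON, 2.74 with shUSP16#1 and 1.12 with shUSP16#2. KIF11 over KIF15, the motors that drive spindle pole separation, was 1.90, 1.21 and 1.27, and KIF3A over KIF3B was 0.265, 0.207 and 0.233. KIF5C and KIF21B are low, so ratios that hold them rest on values near 1 TPM or less.

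Summed over all 47 members, kinesin TPM was 709.2 in shCON, 630.9 with shUSP16#1 and 506.9 with shUSP16#2. The mitotic kinesins summed to 314.6, 220.1 and 179.2 TPM and the others to 394.6, 410.8 and 327.7 TPM.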
